A study of Mus musculus with 6 samples.

Results

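RNA-Seq data were used to examine the TCF/LEF transcription factors and the proteins that bind β-catenin in mammary tumors of BK5.ATF3 mice. The members were 10 genes chosen by symbol, *Lef1*, *Tcf7*, *Tcf7l1*, *Tcf7l2*, *Ctnnb1*, *Bcl9*, *Bcl9l*, *Apc*, *Axin1* and *Gsk3b*, and all 10 were found among the 15280 genes of the table. In BK5.ATF3 transgenic mice, a bovine cytokeratin-5 promoter, active in basal epithelial cells, drives the stress-response transcription factor ATF3. From each of 3 parous transgenic females, 1 mammary tumor and the matched normal gland beside it were sequenced. The glands are named M11035, M11640 and M9232 and the tumors of the same mice T11035, T11640 and T9232, and per-library values follow this order of mice throughout. The age at tumor onset in this line is 6 to 12 months, and the tissue was collected at a tumor length of 1.5 cm. The normal glands carry the transgene as well, so both arms are transgenic and there is no wild-type arm. The p-values below measure the spread between these 3 mice per tissue.

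Canonical Wnt signaling runs through β-catenin. In the absence of a Wnt signal, a destruction complex built on the scaffolds APC and AXIN1 presents β-catenin to the kinases CK1 and GSK3β, and the marked protein is degraded. When Wnt ligands inactivate the complex, β-catenin enters the nucleus, binds a TCF/LEF factor on DNA and recruits BCL9 or BCL9L, which link it to the Pygopus coactivators. Without β-catenin, TCF/LEF factors hold Groucho/TLE corepressors on the same sites. β-catenin also has a structural role at adherens junctions, where it joins cadherins to α-catenin. In the mammary gland this pathway acts in basal and stem cells, and TCF-1 (*Tcf7*) and LEF1 are at the same time classical transcription factors of T cells.

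The short sequence that TCF/LEF factors bind has the core CTTTGA, which reads as TCAAAG on the other strand. It was looked for in the promoters of the members and of target genes of the pathway. RefSeq promoter windows (GRCm38.p6) run from 250 bases before to 50 bases after a start site. The search covered 7 of the 10 members, in 13 windows. *Axin1* and *Bcl9l* had no window, and *Apc* was left out of the search, so its promoter was not examined. On either strand, the core occurred in 2 of these 13 windows, an internal start of *Lef1* and the start of *Gsk3b*, and in 16% of all 32851 windows. The longer form CTTTGAT, which contains the core, occurred in 0 of the 13 member windows and in 3.73% of all windows. Of 17 listed target genes of the pathway, 10 were covered by the search. The core lay in 3 of their 12 windows (*Dkk1*, *Sp5* and *Tnfrsf19*), of which 2 (*Sp5* and *Tnfrsf19*) held the longer form. The 250 bases before the start are printed 5′ to 3′ on the strand of the gene with the core in capitals, for *Ctnnb1* as the member with the largest increase, for both members with a match, and for *Dkk1* as the target gene with the largest increase.
Ctnnb1 (chr9:120933150-120933399, plus strand): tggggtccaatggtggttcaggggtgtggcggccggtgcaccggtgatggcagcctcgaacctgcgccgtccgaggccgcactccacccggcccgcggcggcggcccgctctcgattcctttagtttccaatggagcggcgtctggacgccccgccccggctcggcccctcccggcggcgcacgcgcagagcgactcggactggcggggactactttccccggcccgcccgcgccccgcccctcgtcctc
Lef1 (chr3:131156044-131156293, plus strand): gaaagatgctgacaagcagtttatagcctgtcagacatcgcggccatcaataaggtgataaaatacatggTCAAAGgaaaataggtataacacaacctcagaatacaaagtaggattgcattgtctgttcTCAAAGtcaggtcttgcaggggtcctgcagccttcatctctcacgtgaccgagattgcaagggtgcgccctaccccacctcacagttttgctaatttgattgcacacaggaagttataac
Gsk3b (chr16:38088751-38089000, plus strand): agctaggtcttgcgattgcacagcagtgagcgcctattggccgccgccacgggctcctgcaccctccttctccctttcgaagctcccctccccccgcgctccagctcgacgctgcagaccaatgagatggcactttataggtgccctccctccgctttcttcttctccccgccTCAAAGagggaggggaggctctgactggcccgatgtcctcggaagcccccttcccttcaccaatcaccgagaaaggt
Dkk1 (chr19:30549497-30549746, minus strand): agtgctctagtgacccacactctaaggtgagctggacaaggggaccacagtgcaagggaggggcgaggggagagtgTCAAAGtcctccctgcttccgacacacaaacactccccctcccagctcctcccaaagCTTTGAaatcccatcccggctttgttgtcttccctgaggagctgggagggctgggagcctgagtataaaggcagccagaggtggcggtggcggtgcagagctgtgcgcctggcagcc
In the *Lef1* window the core began 180 and 120 bases before the start, both times on the strand opposite to the gene. The match of *Gsk3b* began 77 bases before its start, also on the opposite strand, and those of *Dkk1* began 174 bases before it on the opposite strand and 117 bases before it on the strand of the gene. *Ctnnb1* had none in this window. A match describes the letters of the window and was not tested for binding.

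Among the 10 members, *Ctnnb1* and *Bcl9* were up-regulated in tumors, *Tcf7* and *Tcf7l2* were down-regulated, and the other 6 were not called. Levels are in CPM, the fragments on a gene scaled to the effective size of its library. Log2 fold changes are differences, tumor over normal, between means of log2(CPM + 0.5), with p-values from limma and Benjamini-Hochberg adjustment across the whole table. Calls required an adjusted p no larger than 0.05 together with a change of 1 or more on the log2 scale in either direction. Over all genes, 28.2% were called, 14.5% up and 13.7% down, so 4 called of 10 has to be read against that share. In 8 of the 10 members the tumors and the glands did not overlap, 3 of them with all tumors higher and 5 with all tumors lower, and the groups did not overlap in 54.0% of all genes. The median log2 fold change was -0.30 over the members and -0.00 over all genes. Each member had at least 19 fragments in every library.

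**Figure D1:**
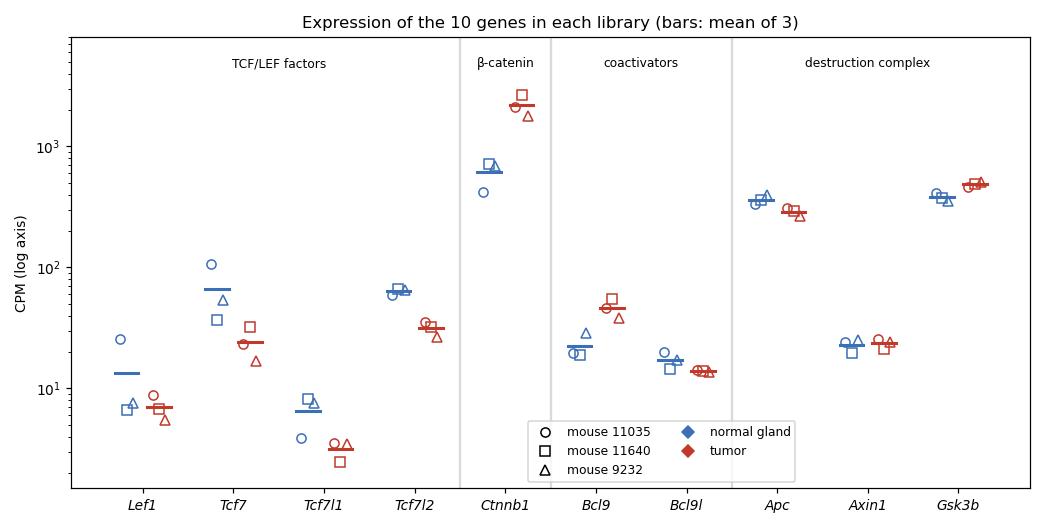
Expression of the 10 genes in each of the 6 libraries, in CPM on a log axis, with 1 symbol per mouse (normal glands in blue, tumors in red) and a bar at the mean of 3. The *Ctnnb1* points of the tumors (1776 to 2647 CPM) sit above all gland points (421 to 712 CPM), whereas the *Tcf7l2* points of the tumors (26.5 to 35.4 CPM) sit below those of the glands (59.6 to 66.2 CPM).

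*Tcf7* encodes TCF-1, a factor that T cells depend on and that also exists as short forms without the β-catenin binding part. It lies on the minus strand of mouse chromosome 11 (mm9, chr11:52065873-52096681). *Tcf7* was at 107, 37.0 and 54.0 CPM in M11035, M11640 and M9232, and at 23.4, 32.4 and 16.8 CPM in T11035, T11640 and T9232. All tumors were lower than all glands, with a wide spread among the glands and a small gap between M11640 and T11640. The means were 65.9 ± 36.4 CPM in glands and 24.2 ± 7.82 CPM in tumors (SD, n = 3 each), and the log2 fold change was -1.34 (SE 0.38, 95% interval -2.21 to -0.47, limma adjusted p = 0.0221). Within mice the log2 difference was -2.16, -0.19 and -1.66. The call rested on single libraries. Without M11035 the log2 fold change was -0.92 (limma adjusted p = 0.0436), without T11035 it was -1.34 (adjusted p = 0.0625), and without T9232 it was -1.10 (adjusted p = 0.0882).

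*Tcf7l2* encodes TCF-4, the main TCF factor of many epithelia (mm9, chr19:55816300-56008144, plus strand). Its levels were 59.6, 66.2 and 65.7 CPM in M11035, M11640 and M9232 and 35.4, 32.4 and 26.5 CPM in T11035, T11640 and T9232. The spread within each tissue was small, and every tumor was lower than every gland. The mean dropped from 63.8 ± 3.69 to 31.4 ± 4.49 CPM (SD, n = 3 each), a log2 fold change of -1.02 (SE 0.16, 95% interval -1.39 to -0.64, limma adjusted p = 0.00144). The adjusted p was at most 0.00862 over 15 alternatives, but the log2 fold change lies next to the threshold of 1. It was -0.90 without T9232, -0.99 without M11640 and -0.99 with a pseudocount of 2, and it also missed the threshold narrowly without M9232 (limma adjusted p = 0.00519).

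*Tcf7l1* encodes TCF-3, which acts mostly as a repressor and is known from stem cells of skin and embryo (mm9, chr6:72576372-72739248, minus strand). It had 3.86, 8.26 and 7.52 CPM in the glands and 3.54, 2.49 and 3.45 CPM in the tumors. The tumors were again all lower, although M11035 was close to them. The log2 fold change was -0.90 (SE 0.33, 95% interval -1.64 to -0.15, limma adjusted p = 0.0554), short of both thresholds. On fragments recovered from the CPM, edgeR's quasi-likelihood test called it (-1.07, adjusted p = 0.0415), and so did limma without M11035 (-1.21, adjusted p = 0.0116). With the mouse as a block, edgeR did not call it (-1.04, adjusted p = 0.0609). Its exons overlap those of *Gm15401* on the opposite strand, and *Gm15401* had 4.52 CPM in glands and 2.31 CPM in tumors on average. The strand setting of the counting is not given in the sources used here, so fragments of the overlap cannot be assigned to either gene with certainty.

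*Lef1* encodes LEF1, a factor of T cells, hair follicles and the embryonic mammary bud that usually activates its targets with β-catenin (mm9, chr3:130813389-130927274, plus strand). The glands had 25.8, 6.61 and 7.52 CPM, and the tumors 8.75, 6.81 and 5.54 CPM. Only M11035 stood apart, and the other 5 libraries lay between 5.54 and 8.75 CPM with tumors and glands mixed. The log2 fold change was -0.63 (SE 0.47, 95% interval -1.70 to 0.45, limma adjusted p = 0.318) and was -0.02 (adjusted p = 0.953) without that gland. A rise of *Lef1* in tumors was thus not detected, and the interval extends to 0.45 on the log2 scale.

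Because longer transcripts collect more fragments, the 4 factors were compared with each other per kb of exon. In the glands, *Tcf7* was the highest (13.3 to 38.3 CPM per kb), followed by *Tcf7l2* (6.82 to 7.58), *Tcf7l1* (1.16 to 2.49) and *Lef1* (0.763 to 2.98). The order of the means was the same in the tumors, with *Tcf7* at 6.02 to 11.6 CPM per kb, *Tcf7l2* at 3.03 to 4.05, *Tcf7l1* at 0.749 to 1.06 and *Lef1* at 0.641 to 1.01. *Tcf7l1* and *Lef1*, neighbors in this order, overlapped in both tissues, whereas *Tcf7* and *Tcf7l2* did not overlap with their neighbors in either. This order depends on the length used, here that of all exons of a gene. With the longest transcript instead, the mean share of *Lef1* in the 4 factors was above that of *Tcf7l1* in glands (7.08 and 5.29%) and tumors (9.77 and 5.48%). *Tcf7l2* was then above *Tcf7* in M11640 (44.7 and 42.2%). The sum of the 4 was 49.2, 24.1 and 30.0 CPM per kb in the glands and 14.5, 16.8 and 10.7 in the tumors. All summed tumor levels were below all summed gland levels.

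The composition of the TCF/LEF pool overlapped between tissues. *Tcf7* made up 77.7, 55.1 and 64.5% of the pool in the glands and 57.9, 68.9 and 56.1% in the tumors. *Tcf7l2* made up 13.8, 31.5 and 25% in the glands and 27.9, 22.0 and 28.3% in the tumors. The share of *Lef1* was 2.90 to 6.06% in glands and 4.68 to 6.96% in tumors, and that of *Tcf7l1* was 2.36 to 10.3% and 4.45 to 9.67%. The exact permutation p (two-sided) was 0.300 for *Lef1*, 0.700 for *Tcf7*, 1.0 for *Tcf7l1* and 0.800 for *Tcf7l2*, in a design where 3 against 3 cannot go below 0.1. The mean share of *Lef1* was 4.04% in glands and 5.87% in tumors, a difference of 1.83 percentage points. It was 2.84 without M11035, the only gland that overlapped with the tumors in this share. The differences in share of *Tcf7* (-4.83) and *Tcf7l2* (2.60) changed sign without M11035, to 1.15 and -2.20. Log2 ratios within a library between *Lef1* and each of the other 3 factors, and between *Tcf7l1* and *Tcf7l2*, overlapped between the tissues as well. The difference was 0.71 for *Lef1* over *Tcf7*, 0.39 for *Lef1* over *Tcf7l2* and 0.27 for *Lef1* over *Tcf7l1* (exact permutation p = 0.20, 0.50 and 0.90). For the latter pair of ratios the overlap and the size rested on M11035. Without it, all tumors were above the remaining glands, by 1.18 for *Lef1* over *Tcf7l1* and 1.04 for *Lef1* over *Tcf7l2*, and by 0.90 for *Lef1* over *Tcf7*.

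**Figure D2:**
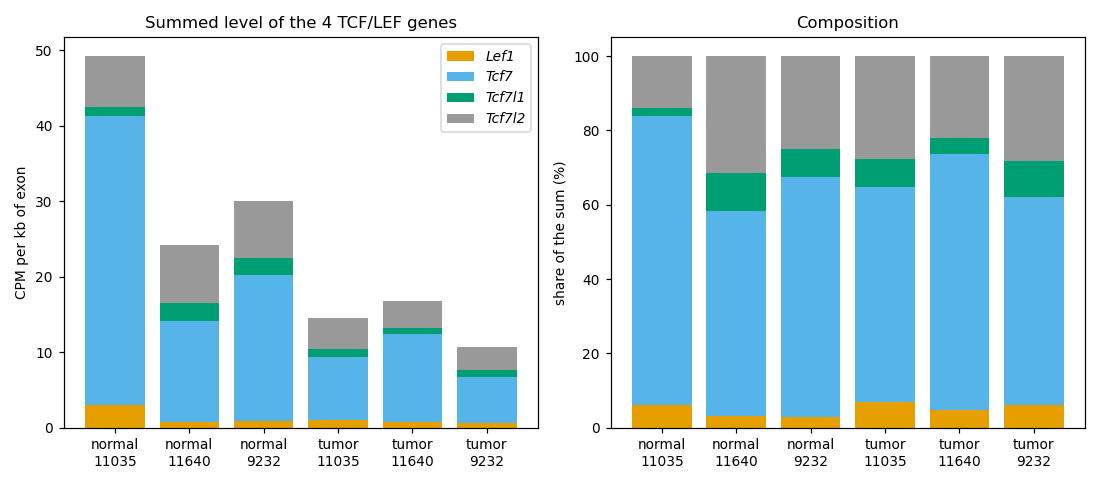
Level of the 4 TCF/LEF genes in each library, stacked, as CPM per kb of exon (left) and as a share of their sum in percent (right). The stacks of the glands reach 24.1 to 49.2 CPM per kb and those of the tumors 10.7 to 16.8, while the shares of the 4 genes overlap between the tissues.

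Genes with the most similar profile over the 6 libraries were looked up for each factor among the 14711 other genes that averaged 1 CPM or more, by the Euclidean distance of centered log2 values. They were *Ltb* (distance 0.43), *Hdac10* (0.47) and *Camp* (0.48) for *Tcf7*, and *Dnahc8* (0.48), *Gm20594* (0.51) and *Sync* (0.66) for *Lef1*. For *Tcf7l2* the nearest were *Vps13a* (0.07), *Serhl* (0.14) and *Ncoa7* (0.15), and for *Tcf7l1* they were *Adcy9* (0.21), *Cys1* (0.26) and *A930019D19Rik* (0.32). The profiles near *Tcf7* and *Lef1* shared their peak in M11035, where *Ltb* had 4.88 CPM against 0.991 and 1.92 in the other glands and *Dnahc8* had 189 CPM against 69.7 and 85.4.

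RNA of cell type markers differed between the tissues. In bulk tissue, fewer cells of a type and less RNA per cell cannot be told apart. Of 18 T cell markers, 17 fell in tumors, beside 13.7% of all genes called down. The other, *Bcl11b*, was not called (41.1 CPM in glands and 50.6 CPM in tumors). The summed level of the 18 was 1226, 493 and 899 CPM in the glands and 166, 187 and 225 CPM in the tumors. The defining markers *Cd3d*, *Cd3e* and *Cd3g* were above 0 in every library. *Zap70* alone was at 0 in 1 library, T9232. The glands had the same order for *Tcf7* and for the T cell sum, from M11035 over M9232 to M11640, whereas the tumor with the highest T cell sum, T9232, had the lowest *Tcf7*. The tumor mean was 0.367 times the gland mean for *Tcf7* and 0.221 times for the T cell sum. Without *Bcl11b* the T cell sum of the tumors was 0.171 times that of the glands. For *Cd3d*, *Cd3e* and *Cd3g* the tumor mean was 0.0694, 0.0775 and 0.126 times the gland mean. M11035, which had the highest *Lef1* and *Tcf7*, also had the highest sums of T cell, B cell (892 CPM against 354 and 569) and skeletal muscle markers (4213 CPM against 1596 and 5.47). The part of these cells in the *Tcf7* and *Lef1* values was not tested.

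**Figure D3:**
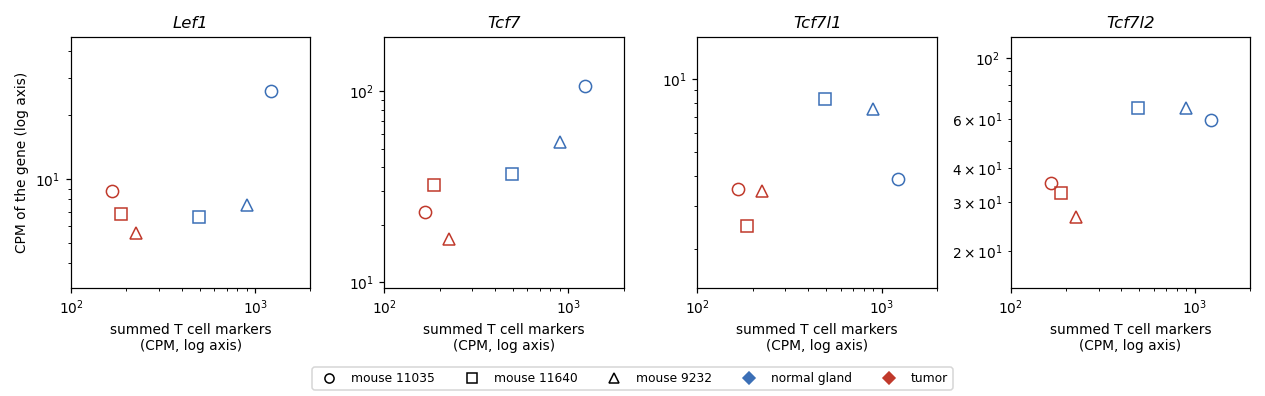
Level of each TCF/LEF gene (CPM, log axis) against the summed level of 18 T cell markers (CPM, log axis) in the 6 libraries, with 1 symbol per mouse, glands in blue and tumors in red. The glands lie at 493 to 1226 CPM of T cell markers and the tumors at 166 to 225, and the highest *Lef1* and *Tcf7* points belong to the gland with the highest T cell sum.

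All 11 adipocyte markers fell, from summed levels of 6527 to 12164 CPM in glands to 266 to 420 CPM in tumors, and all 10 B cell markers fell. Of 8 basal epithelial markers 7 rose (768 to 1008 CPM in glands, 2617 to 2955 CPM in tumors), and all 10 squamous and all 19 hair follicle markers in the table rose. Of 10 luminal epithelial markers, 4 rose and 3 fell, with sums of 441 to 879 CPM in glands and 429 to 515 CPM in tumors. Of 10 fibroblast markers 5 rose and 1 fell (1304 to 4973 CPM in glands, 12330 to 14150 CPM in tumors), and of 9 neutrophil markers 5 rose and 3 fell (235 to 626 and 1115 to 1801 CPM). Of 6 myoepithelial markers 3 fell (353 to 744 and 194 to 239 CPM), as did 3 of 9 endothelial markers (375 to 511 and 222 to 308 CPM), and of 9 macrophage markers 1 rose and 1 fell (315 to 1011 and 640 to 983 CPM). Over all genes, 14.5% were called up and 13.7% down, and the marker counts have to be read against these shares. The macrophage counts lay below both. The part of these marker differences in the values of the members was not tested.

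*Ctnnb1*, the gene of β-catenin, showed the largest change of the members and their highest level. It lies on the plus strand of chromosome 9 (mm9, chr9:120838334-120869625). It had 421, 712 and 696 CPM in M11035, M11640 and M9232, and 2137, 2647 and 1776 CPM in T11035, T11640 and T9232. Every tumor was above every gland, and the lowest tumor was T9232. The mean was 610 ± 163 CPM in glands and 2187 ± 438 CPM in tumors (SD, n = 3 each), so the tumor mean was 3.59 times the gland mean. The log2 fold change was 1.86 (SE 0.23, 95% interval 1.33 to 2.40, limma adjusted p = 3.68e-04), larger than that of 92.6% of all genes, and within mice it was 2.34, 1.89 and 1.35. *Ctnnb1* was called under all 15 alternatives, with log2 fold changes of 1.62 to 2.0. Its mean level was above that of 99.8% of the genes. *Ulk4*, whose exons overlap those of *Ctnnb1* on the opposite strand, had 0.812 CPM in glands and 1.53 CPM in tumors on average. These are RNA levels, and the amount, phosphorylation or location of β-catenin protein was not measured in these libraries.

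Of the BCL9 coactivators, *Bcl9* was called and *Bcl9l* was not. *Bcl9*, on the minus strand of chromosome 3 (mm9, chr3:97007585-97032769), had 19.7, 19.0 and 28.5 CPM in the glands and 46.3, 55.2 and 38.2 CPM in the tumors. All tumors were higher, with the smallest gap between M9232 and T9232. The mean was 22.4 ± 5.26 CPM in glands and 46.6 ± 8.48 CPM in tumors (SD, n = 3 each), with a log2 fold change of 1.05 (SE 0.22, 95% interval 0.55 to 1.55, limma adjusted p = 0.00523). As for *Tcf7l2*, this value is close to the threshold of 1, and it was 0.92 (limma adjusted p = 0.0311) without T11640, 0.94 without M11640, 0.97 without M11035 and 0.99 under quantile normalization. *Bcl9l*, its paralog (mm9, chr9:44307219-44318471, plus strand), had 20.1, 14.4 and 17.1 CPM in glands and 14.3, 14.0 and 13.8 CPM in tumors. The tumors were lower by a small margin, and the log2 fold change of -0.27 (SE 0.19, 95% interval -0.71 to 0.17) was not called (limma adjusted p = 0.293).

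Within a library, the log2 ratio of *Bcl9* to *Bcl9l* was -0.03, 0.39 and 0.72 in the glands and 1.66, 1.94 and 1.44 in the tumors. The ratio was higher in every tumor, by 1.32 on average (exact permutation p = 0.10, two-sided, the smallest that 3 against 3 can give, adjusted p = 0.260). Per kb of exon, the mean of *Bcl9* was 2.70 CPM in glands and 5.62 CPM in tumors, and that of *Bcl9l* was 3.24 and 2.65 CPM. The exons of *Bcl9* cover 8285 bp and its longest transcript has 6102 bp, whereas both lengths are 5304 bp for *Bcl9l*. The order of these genes in the glands depends on which length is used.

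None of the destruction complex members was called. *Apc*, the large scaffold that is a tumor suppressor of the intestine (mm9, chr18:34380578-34481843, plus strand), had 332, 358 and 397 CPM in the glands and 309, 292 and 264 CPM in the tumors. All tumors were slightly lower, with means of 362 ± 32.4 CPM in glands and 288 ± 22.6 CPM in tumors (SD, n = 3 each) and a log2 fold change of -0.33 (SE 0.13, 95% interval -0.63 to -0.02, limma adjusted p = 0.0820). *Gsk3b*, the kinase that marks β-catenin for degradation (mm9, chr16:38089087-38246170, plus strand), had 415, 372 and 355 CPM in glands and 461, 489 and 509 CPM in tumors. Here all tumors were slightly higher, at a log2 fold change of 0.35 (SE 0.13, 95% interval 0.06 to 0.64, limma adjusted p = 0.0529). *Axin1*, the scaffold that limits assembly of the complex (mm9, chr17:26275631-26332756, plus strand), had 24.2, 19.8 and 25 CPM in glands and 25.5, 21.0 and 24.3 CPM in tumors. The tissues overlapped for *Axin1*, and its log2 fold change was 0.04 (SE 0.18, 95% interval -0.37 to 0.44, limma adjusted p = 0.891), with a sign that changed between alternatives.

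**Figure D4:**
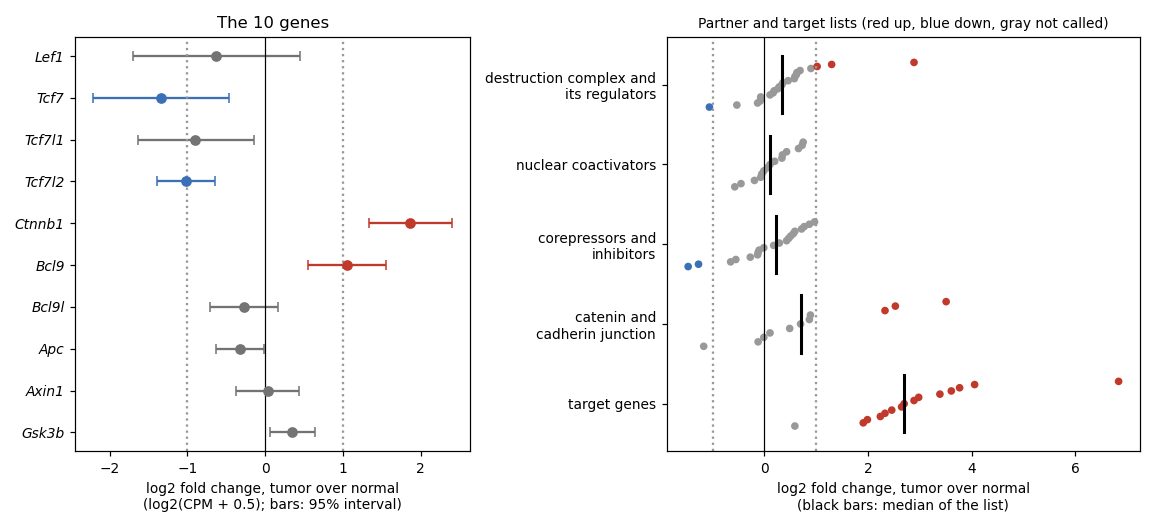
Log2 fold changes of tumor over normal on the log2(CPM + 0.5) scale, for the 10 genes with 95% intervals (left) and for the genes of 5 partner and target lists with the list median as a black bar (right), in red where called up, blue where called down and gray where not called. Of the 10 genes, *Ctnnb1* (1.86) and *Bcl9* (1.05) are called up and *Tcf7* (-1.34) and *Tcf7l2* (-1.02) down, and the target genes have a median of 2.70.

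The ratio of *Ctnnb1* RNA to that of each destruction complex member was higher in every tumor. The log2 ratio of *Ctnnb1* to *Apc* was 0.34, 0.99 and 0.81 in the glands and 2.79, 3.18 and 2.75 in the tumors, a difference of 2.19 between the means. For *Axin1* the ratio had a mean of 4.66 ± 0.53 in glands and 6.49 ± 0.41 in tumors (difference 1.83), and for *Gsk3b* it had a mean of 0.64 ± 0.54 and 2.15 ± 0.32 (SD, n = 3 each, difference 1.51). In each of these ratios all tumors were above all glands. With *Jup*, the gene of plakoglobin, the closest relative of β-catenin, the log2 ratio was 4.46, 4.66 and 4.61 in the glands and 4.34, 4.26 and 3.14 in the tumors, with means of 4.58 ± 0.11 and 3.91 ± 0.67 (SD, n = 3 each). All tumors were lower, but T9232 was far below the other tumors, and the difference of -0.66 was -0.28 without it. Each of the 4 ratios had an exact permutation p of 0.10 (two-sided), the smallest that this design allows, and an adjusted p of 0.260 over 13 tests.

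**Figure D5:**
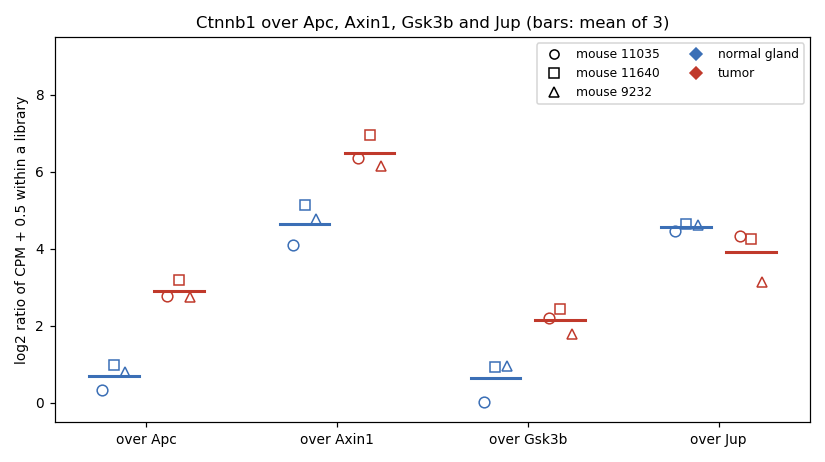
Log2 ratio of *Ctnnb1* to *Apc*, *Axin1*, *Gsk3b* and *Jup* within each library (CPM + 0.5), with 1 symbol per mouse, glands in blue, tumors in red and a bar at the mean of 3. The tumors lie above the glands for the first 3 ratios (by 2.19, 1.83 and 1.51 on average) and below them for *Jup* (mean difference -0.66).

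Of 23 other genes of the destruction complex and its regulators in the table, 3 were up-regulated, 1 was down-regulated and 19 were not called, with a median log2 fold change of 0.34 beside -0.00 over all genes. The 4 called of 23 compare with 28.2% of all genes. *Axin2*, a feedback target that can take the place of *Axin1* in the complex, rose most, from 13.6 ± 5.17 to 99.4 ± 11.4 CPM (SD, n = 3 each, log2 fold change 2.89, limma adjusted p = 5.68e-05). The CK1 genes *Csnk1e* (1.30) and *Csnk1a1* (1.02) were the other genes called up, the latter next to the threshold of 1. The number called up was 2 under quantile normalization and 2 without T11640. *Dixdc1*, which encodes a Dishevelled-binding activator of the pathway, was the only gene called down (-1.06, limma adjusted p = 0.0143), and *Frat2*, a GSK3 inhibitor, followed with -0.53 without a call. The call of *Dixdc1* was lost without M11640, T11640 or T9232.

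Of 15 nuclear coactivators, limma called 0, where it called 28.2% of all genes. With edgeR and DESeq2 the number was also 0. An unadjusted p under 0.05 was found for 4 with higher and 2 with lower levels in tumors. The highest log2 fold changes were those of *Ruvbl1* (0.75), a helicase subunit of chromatin remodelers, and *Ssbp3* (0.73), and the lowest were those of *Tbl1xr1* (-0.57) and the Mediator subunit *Med12* (-0.45), with a list median of 0.11. Of 20 corepressors and inhibitors, 2 fell and 18 were not called, with a median of 0.23, where 13.7% of all genes were called down. *Cbfa2t3*, a corepressor of blood cells, fell by 1.47 and *Sox17*, an endodermal and endothelial factor that inhibits TCF, fell by 1.27 on the log2 scale. Of 9 endothelial markers, *Tek* (-1.35) and *Vwf* (-1.07) had the lowest log2 fold changes. Among the 9, 3 were called down and 6 were not called, with a median of -0.41 and *Emcn* highest at 0.28. The part of endothelial RNA in the *Sox17* value was not tested. The Groucho gene *Tle3* had a log2 fold change of 0.97 (27.6 ± 1.50 CPM in glands and 54.8 ± 5.59 CPM in tumors, SD, n = 3 each, limma adjusted p = 0.00136), just under the threshold, and *Tle6* had 0.87. Genes of this kind did not move together. *Tle4* (-0.55, limma adjusted p = 0.0299) and *Aes* (-0.65, limma adjusted p = 0.0553) were lower in every tumor, and *Tle1* had 0.18 and *Tle2* 0.29.

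At the junction, where β-catenin binds cadherins, 3 of 11 genes rose, 0 fell and 8 were not called, with a median of 0.70, where 14.5% of all genes were called up. None of the 11 was called down with edgeR or DESeq2 either, and 0 had an unadjusted p under 0.05 with lower levels in tumors. The genes that rose were *Cdh3* (P-cadherin of basal cells, log2 fold change 3.51), *Jup* (2.53) and *Cdh1* (E-cadherin, 2.33, from 77.5 ± 32.6 to 374 ± 64.4 CPM, SD, n = 3 each). The lowest were *Ctnna3* (-1.17) and the endothelial cadherin *Cdh5* (-0.12), neither of them called. Beside these cadherins 7 of 8 basal epithelial markers rose, and their part in the values was not tested.

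Of 15 target genes of the pathway in the table, 14 rose and 1 was not called, with a median log2 fold change of 2.70, where 14.5% of all genes were called up. The list was compiled with earlier results of these data known, so it is not independent evidence of its direction. *Dkk1*, a secreted Wnt inhibitor induced by the pathway, had 0.813, 0.165 and 0.684 CPM in the glands and 76.7, 145 and 138 CPM in the tumors (log2 fold change 6.84, limma adjusted p = 3.42e-06). With 1 to 5 fragments in each gland, its log2 fold change depends on the pseudocount of 0.5. *Tnfrsf19*, the receptor TROY, had the next largest value (4.06), and *Nkd1*, a feedback inhibitor, was the lowest of the called targets (1.91). *Myc* was the gene not called, at 26.7 ± 1.60 CPM in glands and 40.8 ± 5.60 CPM in tumors (SD, n = 3 each, log2 fold change 0.59, limma adjusted p = 0.0218). *Notum* and *Sp5* had at most 2 fragments in any gland, and the median was 2.79 with their gland level set at a floor of 3 fragments. The number of target genes called down was 0 with limma, edgeR and DESeq2, and 0 had an unadjusted p under 0.05 in that direction.

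The members also differed in their level. Per kb of exon, *Ctnnb1* had 120 CPM in glands and 429 CPM in tumors, *Gsk3b* 38.7 and 49.5, *Apc* 23.0 and 18.3, and *Axin1* 6.01 and 6.16. Among the TCF/LEF factors, *Tcf7* had 23.6 and 8.67 and *Tcf7l2* had 7.30 and 3.59. In the tumors, *Ctnnb1* was higher per kb than each other member, and *Lef1*, at 0.813, and *Tcf7l1*, at 0.95, were the lowest.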

How the data were processed

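RNA-Seq was performed by the authors on total RNA of 3 tumors and 3 matched glands (NuGEN Ovation libraries). The authors mapped read pairs to mm9 with TopHat 2.0.3, counted fragments per RefSeq gene with HTSeq 0.5.3p9 and normalized with edgeR 3.6.1. The deposited values are a normalized signal in CPM, relative to the effective library size, and genes under 10 fragments in total had been removed. Fragments were recovered by dividing each value by what 1 fragment is worth, which gave whole numbers (tolerance 0.01) for 100% of values and 4750989 to 7806908 fragments per library. A floor of 3 fragments equals 0.393 to 0.610 CPM and covers counting error only.

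Genes were tested here with limma 3.58.1 (R 4.3.3, mean-variance trend, no block) on log2(CPM + 0.5). The thresholds follow the methods of the study, which used edgeR on counts. The unit was recorded as a signal because columns sum to 952151 to 1041166 CPM. The alternatives used edgeR 4.0.16, DESeq2 1.42.0, other scalings, pseudocounts and filters, and left out each library. Shares and ratios were tested with exact permutation tests over 13 comparisons. Scripts were tested on simulated data. Both libraries of a mouse come from 1 animal, so mouse numbers pair the samples, and the correlation of their deviations was 0.107, 0.151 and 0.0168 over 14712 genes.

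Members and lists were chosen with earlier results of these data known. Named genes are the members, the 2 highest and 2 lowest of each list and any gene alone in its direction, and the 3 nearest profiles of each factor. *Csnk1a1*, *Cdh1*, *Notum*, *Sp5*, *Tek*, *Vwf*, *Emcn*, *Tle1*, *Tle2*, *Tle4*, *Aes* and single T cell markers were named after their values were seen. Gene positions and exon lengths are from GENCODE vM1 (mm9), promoters from RefSeq on GRCm38.p6, and coordinates of the 2 builds are not comparable. Among the protein-coding transcripts of GENCODE vM1, no member had one of another gene at least 95% identical over 500 bp (BLAST 2.17.0). Noncoding transcripts and pseudogenes outside that set were not searched.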

Additional observations from a re-analysis of the deposited data

How the results depend on the processing

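Of the members, *Ctnnb1* kept its call under all 15 alternatives, and *Lef1*, *Bcl9l*, *Apc* and *Gsk3b* were not called in any. The number of members called up was 1 instead of 2 with quantile normalization and 1 to 2 when a library was left out. The number called down was 1 instead of 2 with a pseudocount of 2 and 0 to 2 when a library was left out, with 0 without T9232. *Axin1* changed sign under quantile normalization (-0.00), without M11640 (-0.07) and without T11035 (-0.02), and ranged from -0.07 to 0.12 when a library was left out. In the lists, leaving out a library gave 0 to 1 destruction complex regulators down (0 without M11640, T11640 or T9232), 0 to 1 corepressors up (1 without T11640) and 0 to 1 junction genes down (1 without M9232), and a pseudocount of 2 gave 1 corepressor down. Leaving out a library also gave 2 to 3 destruction complex regulators up and 3 to 4 junction genes up. With the mouse as a replicate block in limma, no call of a member changed (*Ctnnb1* 1.86, adjusted p = 4.43e-04, and *Tcf7l1* -0.90, adjusted p = 0.0747). With edgeR, *Tcf7l1* was called without the block (adjusted p = 0.0415) and not with it (-1.04, adjusted p = 0.0609), a fit added after the data were seen. Scaling moved the median of all genes by at most -0.04 on the log2 scale. Shares and ratios moved by less than the pooled SD of both tissues under every alternative run, but where the spread was wide this allowed large moves. When a library was left out, the differences in share ranged from -10.2 to 1.15 points for *Tcf7*, -2.20 to 6.60 for *Tcf7l2* and -1.78 to 2.19 for *Tcf7l1*, and the difference in log2 ratio from -0.26 to 1.18 for *Lef1* over *Tcf7l1*, 0.02 to 1.04 for *Lef1* over *Tcf7l2*, -0.14 to 0.29 for *Tcf7l1* over *Tcf7l2* and -0.88 to -0.28 for *Ctnnb1* over *Jup*. With 3 mice, differences as small as that of *Axin1* were not detectable, and protein was not measured.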
